A study of Mus musculus with 2 samples.

Results

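The 8 genes examined here encode the subunits of the cytosolic chaperonin CCT, also called TRiC: Tcp1 (subunit CCT1), Cct2, Cct3, Cct4, Cct5, Cct6a, Cct7 and Cct8. They were looked up by mouse symbol among 17215 genes listed by NCBI gene number, and all 8 were found. Proteins were not measured; every value below is a messenger RNA level. The cells were MC3T3-E1, a clonal pre-osteoblast line from newborn mouse calvaria, kept in serum-supplemented alpha-modified Eagle's medium to which formaldehyde had been added at 100 µM or at 300 µM. Formaldehyde is a small reactive aldehyde that crosslinks protein and DNA, and the series is titled as a study of impaired osteoblast proliferation. There was 1 library at each dose, the labels give no exposure time, and cells without formaldehyde were not analysed here. No test and no p-value is therefore possible, and each difference is one between 2 libraries with no spread between cultures to set it against.

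CCT folds newly made proteins inside a closed chamber. A pair of stacked rings is each built from 8 different but related subunits present once per ring. It binds a client chain, closes in a cycle that uses ATP and releases the folded protein. Actin and tubulin are its best known clients, and many WD40 repeat proteins also depend on it, so dividing cells and cells that remodel their cytoskeleton use it heavily. Because every ring takes 1 copy of each subunit, the relative abundance of the 8 messages can be set against an equal share of 12.5% each. The ring has a fixed order, Tcp1, Cct4, Cct2, Cct5, Cct7, Cct8, Cct6a and Cct3, with Cct3 next to Tcp1 again. Biochemical work has divided it into a side of higher ATP affinity (Tcp1, Cct4, Cct2 and Cct5) and a side of lower ATP affinity (Cct7, Cct8, Cct6a and Cct3).

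Upstream sequence was taken from RefSeq for the mouse assembly GRCm38.p6, in windows from 250 bases before to 50 bases after each annotated start, and 7 of the 8 genes had such a window. The question was whether letters bound by heat shock factor HSF1, a known activator of chaperone genes, lie in them. The canonical element of 3 alternating units (GAANNTTCNNGAA or TTCNNGAANNTTC, either strand) was in 0 of the 7 genes and in 0.662% of all 27025 genes with a window; a gene counts when any of its windows matches. The shorter form of 2 units (GAANNTTC or TTCNNGAA, either strand, contained in the longer form) was in 3 of the 7, Cct2, Cct5 and Cct6a, and in 17.0% of all genes. These include Cct5 and Cct6a, the pair of subunits whose ratio to each other differed most between the doses. Log2 ratios of 300 µM over 100 µM, with 1 added to each value, were 0.24 for Cct5, -0.33 for Cct6a and 0.10 for Cct2. The part of such letters in the differences was not tested. The 3 stretches of 30 bases are shown 5′ to 3′ on the gene's strand with the matching letters in capitals, at chr15:31601862-31601891 (minus strand) for Cct5, chr5:129787369-129787398 (plus strand) for Cct6a and chr10:117063399-117063428 (minus strand) for Cct2.
Cct5: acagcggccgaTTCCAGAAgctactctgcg
Cct6a: gcgtaagacttTTCGAGAAgaccccgcaga
Cct2: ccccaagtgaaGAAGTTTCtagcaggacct
The match begins at base -34 relative to the upstream of the annotated starts of Cct5, at base 25 after the start of Cct6a, and at base -42 relative to the downstream of the annotated starts of Cct2. Cct2 and Cct5 each have a pair of annotated starts, and the window of the other start held no match in either gene.

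The 250 bases upstream of Cct5 (chr15:31601847-31602096, minus strand) and Cct6a (chr5:129787106-129787355, plus strand) are shown because these subunits had the highest and the lowest of the 8 ratios between doses on each of the 4 scales used. Capitals mark the heat shock letters in Cct5 and the CCAAT letters, the box bound by the factor NF-Y, in Cct6a.
Cct5 upstream: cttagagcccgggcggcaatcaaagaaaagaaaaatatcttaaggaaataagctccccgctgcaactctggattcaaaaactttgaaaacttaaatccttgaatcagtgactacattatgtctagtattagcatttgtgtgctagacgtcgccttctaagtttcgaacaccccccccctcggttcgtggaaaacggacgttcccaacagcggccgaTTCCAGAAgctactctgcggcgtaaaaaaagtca
Cct6a upstream: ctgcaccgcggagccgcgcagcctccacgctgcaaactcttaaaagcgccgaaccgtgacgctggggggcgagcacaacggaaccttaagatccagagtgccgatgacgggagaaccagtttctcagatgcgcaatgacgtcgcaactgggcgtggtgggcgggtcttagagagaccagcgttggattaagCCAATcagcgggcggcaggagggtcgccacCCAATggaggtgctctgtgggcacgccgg
Over both strands, CCAAT was present in Cct3, Cct6a, Cct7 and Tcp1, 4 of 7 genes, and in 41.1% of all genes. The GC box GGGCGG was in all 7 genes and in 38.2% of all genes, whereas the TATA box TATAAA was in 0 of the 7 and in 15.7% of all genes. Such matches describe letters in a window and say nothing about binding.

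All 8 subunit messages were abundant at both doses, and on the deposited scale their summed levels differed by less than 1%. Levels are in FPKM as deposited, a fragment number divided by transcript length and by the library's mapped fragments. The sum was 2032 FPKM at 100 µM against 2015 FPKM at 300 µM, a ratio of 0.992. The median subunit measured 257.7 FPKM at 100 µM against 265 FPKM at 300 µM. In bulk RNA, fewer expressing cells and less RNA per cell cannot be told apart.

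On the side of higher ATP affinity, Tcp1, the founding subunit of the family, measured 314 FPKM at 100 µM against 317 FPKM at 300 µM. Cct4 stood at 226 and 224 FPKM. These messages were level across the doses as deposited, while with equal sums their log2 ratios were -0.36 (Tcp1) and -0.38 (Cct4), and after centring on the median gene 0.31 and 0.29. Cct2 measured 304 FPKM at 100 µM against 326 FPKM at 300 µM, and Cct5 at 269.9 and 318 FPKM. Both were higher at 300 µM as deposited, Cct5 by 17.9% and Cct2 by 7.2%, and lower once sums were made equal over all genes (log2 ratios -0.14 and -0.27).

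On the side of lower ATP affinity, Cct7 measured 302 FPKM at 100 µM against 306 FPKM at 300 µM, level as deposited, with log2 ratios of -0.36 with equal sums and 0.32 after centring. Cct8 stood at 185 and 157 FPKM. Cct6a, the message of subunit CCT6, measured 245 FPKM at 100 µM against 194 FPKM at 300 µM. Cct3 stood at 185 and 173 FPKM. As deposited, Cct8, Cct6a and Cct3 were lower at 300 µM, Cct6a by the most, at 0.792 of its level at 100 µM, then Cct8 at 0.850 and Cct3 at 0.931. After centring on the median gene, the log2 ratios of Cct8 and Cct3 were above zero, at 0.07 and 0.20, and that of Cct6a was -0.04.

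**Figure D1:**
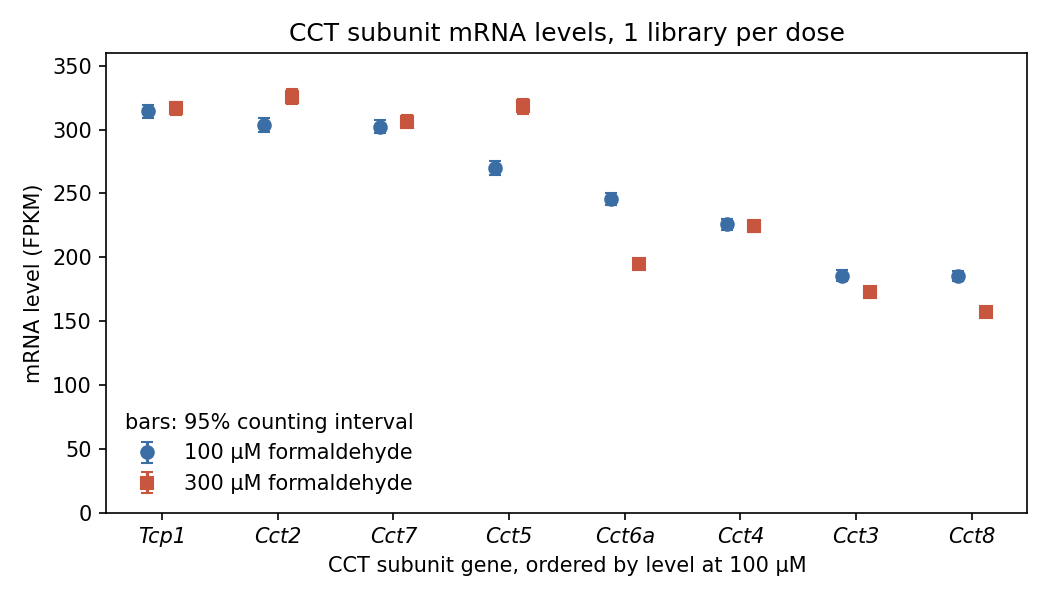
Level of each CCT subunit message in FPKM (vertical axis, from 0) at 100 µM (blue circles) and 300 µM formaldehyde (red squares), 1 library each, with genes ordered along the horizontal axis by their level at 100 µM. Bars are 95% counting intervals and do not cover variation between cultures. Tcp1, Cct7 and Cct4 nearly coincide between doses, Cct5 is higher at 300 µM, and Cct6a and Cct8 are lower, on the deposited scale; Cct5 turns with equal sums and Cct8 after centring.

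Depth was high enough that, on the deposited scale, counting error was small beside the differences of Cct5, Cct6a and Cct8. About 66.2% of the low values at 100 µM and 66.4% at 300 µM lay close to whole multiples of a step worth 1 read, against 24% for an even spread. The step was the one, of those tried, with the highest such share, so 24%, which holds for a fixed step, is a lenient reference. It places the libraries near 18500000 mapped fragments at 100 µM and near 19000000 at 300 µM. Each subunit then rested on roughly 6788 to 14243 reads at 100 µM and 6498 to 14751 at 300 µM. Exact binomial 95% intervals of the log2 ratio without a pseudocount ran from 0.20 to 0.28 for Cct5 and from 0.06 to 0.14 for Cct2. They ran from -0.38 to -0.30 for Cct6a, from -0.28 to -0.19 for Cct8 and from -0.15 to -0.05 for Cct3. The intervals of the other three, Tcp1, Cct4 and Cct7, held 0. All these intervals are on the deposited scale, and which of them hold 0 depends on it. After centring on the median gene the log2 ratios of Cct6a and Cct8 were -0.04 and 0.07. With equal sums that of Cct5 was -0.14. These intervals cover counting error only, not variation between cultures, and without molecular identifiers some reads may be copies of 1 molecule.

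The order of the subunits differed between the doses, with Cct3 and Cct8 the lowest at both. At 100 µM the order from high to low was Tcp1, Cct2, Cct7, Cct5, Cct6a, Cct4, Cct3 and Cct8. The counting intervals of Tcp1 and Cct2, of Cct2 and Cct7, and of Cct3 and Cct8 overlapped, so these neighbours could not be ordered. At 300 µM the order was Cct2, Cct5, Tcp1, Cct7, Cct4, Cct6a, Cct3 and Cct8. There the intervals of Cct2 and Cct5 and of Cct5 and Tcp1 overlapped, and those of the other neighbours did not. Cct5 stood below Cct7 and Tcp1 at 100 µM and above Cct7 at 300 µM. Cct6a and Cct4 changed places, and their counting intervals were apart at both doses.

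The messages were less equal at 300 µM than at 100 µM. The highest subunit stood 1.70 times above the lowest at 100 µM (Tcp1 over Cct8) and 2.07 times at 300 µM (Cct2 over Cct8). The coefficient of variation over the 8 levels was 20.5% and 28.6%. Cct8 made up 9.11% of the summed level at 100 µM and 7.81% at 300 µM, against 12.5% for equal shares. Cct6a made up 12.1% and 9.65%, while Cct5 made up 13.3% and 15.8%. The share of Tcp1 was 15.5% and 15.7%.

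Ratios between subunits do not depend on how the libraries are scaled. The ratio of Cct5 to Cct6a was 1.10 at 100 µM and 1.64 at 300 µM, a 1.49-fold difference, and had the largest difference among the 28 pairs. The ratio of Cct5 to Cct8 was 1.46 and 2.02, and that of Cct2 to Cct6a was 1.24 and 1.67. In all, 8 of 28 pairs differed by at least 1.2-fold between doses, and 7 of these held Cct6a or Cct8. The remaining one was Cct5 to Cct3, at 1.46 and 1.84.

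The log2 ratios were also laid out in the order of the ring. On the scale log2((FPKM at 300 µM + 1)/(FPKM at 100 µM + 1)), used from here on, the values ran 0.01 for Tcp1, -0.01 for Cct4, 0.10 for Cct2 and 0.24 for Cct5. They continued with 0.02 for Cct7, -0.23 for Cct8, -0.33 for Cct6a and -0.10 for Cct3. The highest value, at Cct5, and the lowest, at Cct6a, were separated by Cct7 and Cct8, and Cct7 lay nearer to Tcp1 and Cct4 than to either of its neighbours. The median was 0.05 on the side of higher ATP affinity and -0.17 on the other. Summed levels were 1114 and 918 FPKM at 100 µM, a ratio of 1.21 between the sides, and 1185 and 830.4 FPKM at 300 µM, a ratio of 1.43. This arrangement was described for 2 libraries and 8 values and was not tested.

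**Figure D2:**
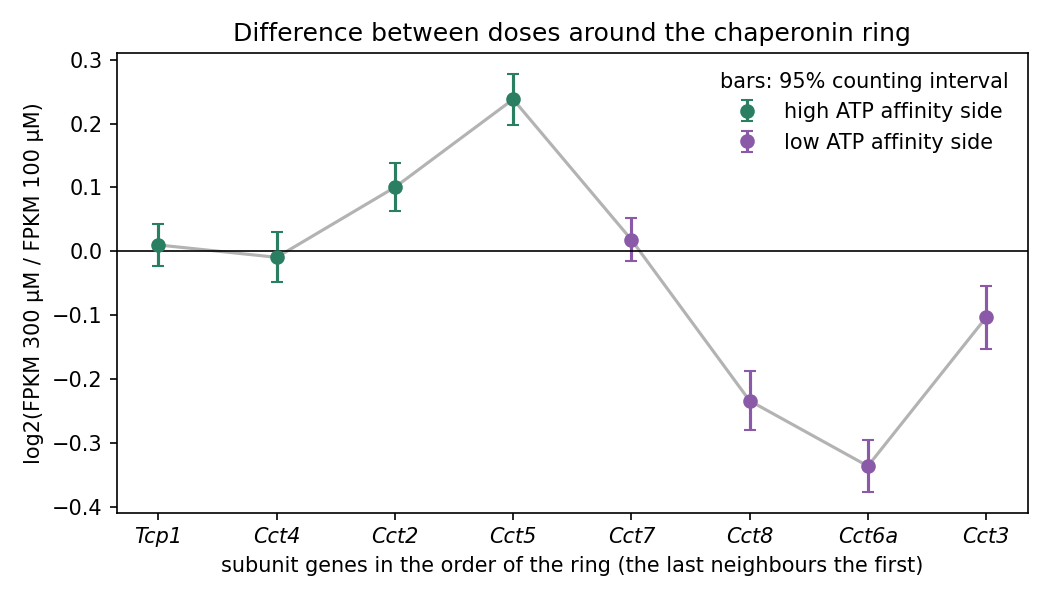
Log2 ratio of the level at 300 µM over that at 100 µM (vertical axis, no pseudocount) for the 8 subunit genes in the order of the ring (horizontal axis; Cct3 is next to Tcp1), with 95% counting intervals as bars. Green points are the side of higher and purple points the side of lower ATP affinity. The values peak at Cct5 and are lowest at Cct6a.

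Structure of the genes offers several properties that vary among the 8. The longest coding transcripts in GENCODE release M21 measured 1853 bases for Cct5 and 1959 for Cct2, the shortest of the set and the ones with the highest ratios. Cct3, with a ratio of -0.10, measured 1977 bases, and the others 2394 to 2484. GC content ran from 43.3% in Cct8 to 54.0% in Cct7, with 50.2% in Cct5 and 47.4% in both Tcp1 and Cct6a. The part of length and base composition in the differences was not tested.

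Reads of the subunits could be assigned with little ambiguity between gene copies. Of the 50-base words of each transcript, 0% occurred in transcripts of another gene for Cct2, Cct5, Cct6a and Cct8. The share was 2.13% for Cct3, with Cct3-ps1, a processed pseudogene, as the main other source. It was 1.34% for Cct7, 0.657% for Cct4 and 0.25% for Tcp1. The exons of 4 members also overlap those of genes on the opposite strand. Psph, the phosphoserine phosphatase gene, shares 12.5% of the annotated exonic bases of Cct6a and measured 18.1 FPKM at 100 µM against 27.6 FPKM at 300 µM. Acat3 shares 11.4% of those of Tcp1 and stood at 0.06 and 0.12 FPKM, and Mrpl18 shares another 2.80%. Usp16, a ubiquitin protease gene, shares 6.22% of those of Cct8 and stood at 14.7 and 10.01 FPKM (log2 ratio -0.51, the same sign as Cct8). Pradc1 shares 3.16% of those of Cct7 and stood at 16 and 22.6 FPKM. No source used here states whether counting used strand, so reads in such overlaps cannot be told apart.

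None of the subunits differed by 2-fold between the doses. The comparison covered genes whose 2 values averaged 1 FPKM or more, a filter that all 8 members passed. At least 2-fold higher at 300 µM were 0 of 8 members, against 6.09% of the 10123 genes compared, and at least 2-fold lower were 0 of 8, against 29.8%. At 1.5-fold the counts were again 0 higher and 0 lower, against 18.8% and 41.6% of all genes. The median log2 ratio over the 8 was 0.00, with 4 above and 4 below zero, and the median of all genes compared was -0.30. The SD of the log2 ratios was 0.18 over the members and 1.09 over all genes.

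Abundant genes behaved differently from the average gene, so the members were also set beside genes of their own level. Another 197 genes had a mean within the members' range, 171 to 316 FPKM. Their median log2 ratio was 0.48, with quartiles at 0.13 and 0.70, above the members' median of 0.00. Of these 197 genes, 5.08% were 2-fold or more higher and 2.03% lower, and 39.6% and 5.58% were so at 1.5-fold. In 24.4% of them the ratio lay within the members' range from -0.33 to 0.24. This reference set was chosen after the values were seen.

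The direction of the CCT genes as a group depends on the scale. The 8 messages held 0.381% of all summed FPKM at 100 µM and 0.291% at 300 µM, because total FPKM was 532944 and 691521. With equal sums in both libraries the median of the 8 was -0.37, with all 8 below zero, from -0.71 for Cct6a to -0.14 for Cct5. On that scale 2 members, Cct6a and Cct8, were at least 1.5-fold lower, against 51.2% of all genes, and 0 were higher, against 7.26%. Ribosomal protein genes, 86 by symbol, held 26.5% and 37.1% of the sums, and with sums equal over the remaining genes the median was -0.15. After centring on the median gene it was 0.30, and 7 of 8 were above zero, Cct6a at -0.04 being the exception. On none of these scales was a member 2-fold apart, against 2.16% of all genes higher and 38% lower with equal sums, 4.03% and 33% without ribosomal protein genes, and 14.5% and 22.3% after centring.

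**Figure D3:**
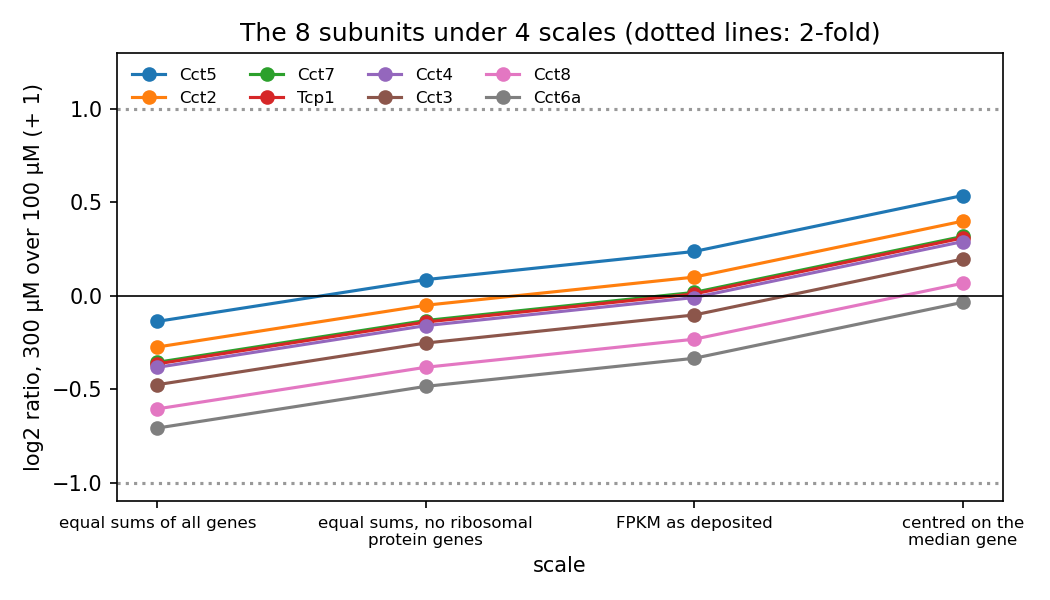
Log2 ratio of 300 µM over 100 µM, with 1 added to each value (vertical axis), for the 8 subunits (coloured lines) on 4 scales (horizontal axis). The dotted lines mark 2-fold. Lines run nearly parallel, from a median of -0.37 with equal sums to 0.30 after centring, and no subunit reaches a dotted line.

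The log2 ratios of the CCT messages had the smallest SD among 7 complexes examined, the other 6 also being assemblies of several subunits. The Arp2/3 list holds the paralogs Arpc1a and Arpc1b, so equal copies of each of its genes are not presumed. The SD of the log2 ratios was 0.18 over the 8 CCT genes, 0.21 over the 14 genes of the 20S proteasome core and 0.22 over the 6 ATPases of the 19S proteasome. It was 0.37 for the MCM2-7 replicative helicase, 0.49 for 7 genes of the COPI coatomer of Golgi vesicles, 0.51 for prefoldin and 0.85 for the actin-nucleating Arp2/3 complex. In the proteasome core 13 of 14 values were above zero, with a median of 0.44 and values from -0.01 (Psma4) to 0.69 (Psmb7). Its spread was near that of CCT but around another centre. The 19S ATPases had a median of 0.12, from -0.08 (Psmc6) to 0.53 (Psmc3). MCM genes ran from 0.19 (Mcm4) to 1.03 (Mcm6) and COPI genes from -0.61 (Arcn1) to 0.88 (Cope). Arp2/3 held the widest contrast, and its lowest and highest values were those of the paralogs Arpc1a (-1.82) and Arpc1b (0.79).

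Greater inequality at 300 µM was shared by all these complexes. The SD of the log2 levels of the CCT genes was 0.31 at 100 µM and 0.44 at 300 µM. It was 0.68 and 0.82 in the 20S core, 0.47 and 0.58 in the 19S ATPases, and 0.26 and 0.52 in MCM2-7. The values were 0.50 and 0.79 in COPI, 0.93 and 1.12 in prefoldin and 0.89 and 1.65 in Arp2/3. In 7 of 7 complexes the value was larger at 300 µM, so the widening cannot be called particular to CCT. Differences between complexes were described and not tested.

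**Figure D4:**
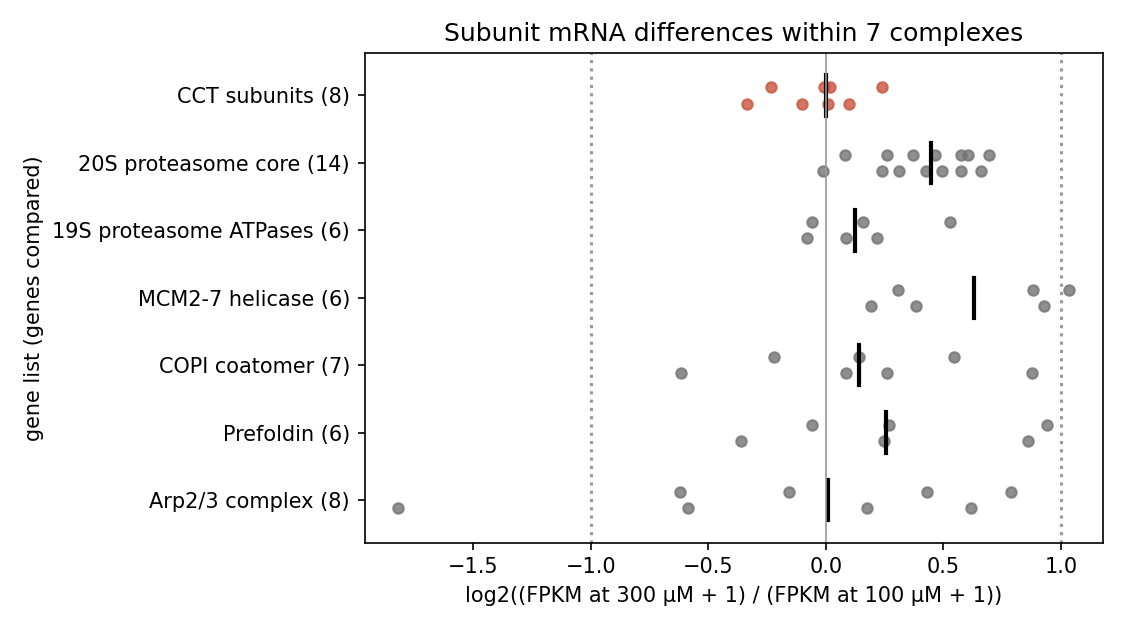
Log2 ratios of 300 µM over 100 µM, with 1 added to each value (horizontal axis), for the subunit genes of CCT (red) and of 6 other complexes (grey), with the number of genes compared in parentheses. Each point is a gene, black bars are medians and dotted lines mark 2-fold. The CCT points span -0.33 to 0.24, while those of Arp2/3 span -1.82 to 0.79.

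Cochaperones, clients, cooperating chaperones and related chaperonins were compared as 9 lists with 72 genes at the required level. The directions given for them are on the deposited scale, and calls that appear or vanish on another scale are named beside each list. Of these genes 5 were higher at 300 µM by 2-fold or more and 10 lower, which is 6.94% and 13.9% against 6.09% and 29.8% of all genes. Their median was -0.24, against -0.30 for all genes.

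Prefoldin, the jellyfish-shaped complex that hands nascent actin and tubulin to CCT, had 0 of 6 genes beyond 2-fold and a median of 0.26. Of all genes, 6.09% were 2-fold higher and 29.8% lower as deposited. Pfdn1 measured 33.1 FPKM at 100 µM against 64.5 FPKM at 300 µM (log2 ratio 0.94), and Pfdn5 at 135 and 246 FPKM (0.86). After centring these 2 of the 6 were beyond 2-fold (1.24 and 1.16), against 14.5% of all genes higher. Pfdn5 shares 27.0% of its 50-base words with other genes. Phosducin-like proteins are cochaperones that bind CCT. Of their 3 genes compared, 1 was at least 2-fold lower, against 29.8% of all genes, namely Pdcl at 12.9 and 5.81 FPKM (-1.03). The prefoldin-like and R2TP group assembles larger complexes together with HSP90. In it 1 of 7 genes was higher, Uxt at 8.77 and 19.03 FPKM (1.04), and 0 were lower, against 6.09% and 29.8% of all genes. Uxt shares 38.3% of its 50-base words with other genes. Pdcl lay within 2-fold after centring (-0.73) and Uxt with equal sums, with or without ribosomal protein genes (0.68 and 0.89). With a pseudocount of 5 both Pdcl (-0.73) and Uxt (0.80) lay within 2-fold. With equal sums 2 of the 7 in that group were 2-fold lower, against 38% of all genes, Pdrg1 (-1.11) and Uri1 (9.03 and 4.78 FPKM as deposited). After centring 2 of the 7 were higher, Pih1d1 (1.16) and Uxt, against 14.5% of all genes. The median of that group was 0.05.

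Tubulin cofactors take over tubulin after CCT has folded it. Of 6 genes, 3 were higher by 2-fold or more and 1 lower (median 0.84), against 6.09% and 29.8% of all genes. Arl2, the small GTPase that regulates the cofactors, measured 33.4 FPKM at 100 µM against 87.7 FPKM at 300 µM (1.37). Tbcd stood at 14.7 and 32.3 FPKM (1.08) and Tbcb at 46.5 and 97.4 FPKM (1.05). Tbcc, a GTPase activator in the same pathway, went the other way at 25.6 and 6.90 FPKM (-1.75). With equal sums Arl2, Tbcd and Tbcb lay within 2-fold, at 0.996, 0.72 and 0.68. Without ribosomal protein genes Tbcd and Tbcb did, at 0.94 and 0.90, and with a pseudocount of 5 as well, at 0.92 and 0.99.

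Of the cytoskeletal clients, 0 of 15 actin and tubulin genes were beyond 2-fold in either direction as deposited, with a median of -0.25. The shares of all genes were 6.09% higher and 29.8% lower. The count of 0 of 15 depends on the scale. With equal sums 5 of 15 were 2-fold lower, against 38% of all genes. They were Tubb3 (-1.33), Tuba1c (-1.32), Tubb2a (-1.30), Tubb6 (-1.09) and Tubb4b (-1.01). Without ribosomal protein genes the first 3 were also lower, against 33% of all genes. Tubb2a shares 49.6% and Tubb4b 50.9% of their words with other genes. After centring 3 of 15 were higher, against 14.5% of all genes, namely Tubg1 (1.24, with 14.1% of its words shared), Acta2 (1.11) and Actg2 (1.05). Acta2, the smooth muscle actin gene, measured 721 FPKM at 100 µM against 1269 FPKM at 300 µM. The list ran from 0.94 (Tubg1) to -0.98. Actb measured 1490.2 FPKM at 100 µM against 1031 FPKM at 300 µM (-0.53), a difference whose sign was the same on all 4 scales. It shares 14.2% of its words with other genes. Actg1 stood at 2524 and 2709 FPKM (0.10), negative with equal sums, with or without ribosomal protein genes, and shares 56.7% of its words with other genes. Tubb5, the main beta-tubulin by level, stood at 585 and 568 FPKM (-0.04, positive after centring), level as deposited like Tcp1 and Cct4. Tuba1b stood at 789 and 1045 FPKM (0.40), with 73.8% of its words shared. The furthest from zero were Tubb3 (-0.98) and Tuba1c (-0.95), of which Tuba1c shares 61.0% of its words.

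Clients of the WD40 class and other proteins folded by CCT spread more widely than the cytoskeletal clients. The SD of their log2 ratios was 0.86, against 0.68 for those clients and 1.09 for all genes. Of 19 genes, 1 was higher by 2-fold or more and 5 lower (median -0.47), against 6.09% and 29.8% of all genes. Ppp2r2a, a regulatory subunit of protein phosphatase 2A, measured 27.6 FPKM at 100 µM against 4.55 FPKM at 300 µM (-2.37), and its relative Ppp2r2d had a log2 ratio of -1.12. Vhl, the von Hippel-Lindau tumour suppressor, stood at 18.0 and 4.31 FPKM (-1.84). Coro1c, a coronin that binds actin, had -1.22 and the transcription factor gene Stat3 had -1.07. Rptor, the raptor subunit of mTORC1, was the one that was higher, at 1.60 and 5.56 FPKM (1.34). After centring, Ppp2r2d, Coro1c and Stat3 lay within 2-fold (-0.82, -0.92 and -0.77). With a pseudocount of 5 they did so too (-0.89, -0.99 and -0.92), as did Rptor (0.68). With equal sums 8 of 19 were lower, against 38% of all genes, with Ccne1 (-1.19), Strn (-1.01) and, just past the limit, Strn3 added.

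Chaperones acting before CCT and the heat shock factors had 0 of 12 higher and 2 lower, against 6.09% and 29.8% of all genes. Their median was -0.60. Hsf1 measured 35.6 FPKM at 100 µM against 22.0 FPKM at 300 µM (-0.67). Hspa8, the constitutive HSP70 that delivers clients, stood at 1703 and 2387 FPKM (0.49), with 73.2% of its words shared. The 2 lower genes were Bag3 at 98.1 and 27.0 FPKM (-1.82) and Hsph1, an HSP110 exchange factor, at 72.1 and 25.2 FPKM (-1.48). With equal sums 6 of 12 were lower, against 38% of all genes. The added ones were Hspa4 (-1.11), Hsf2 (-1.11), Dnaja1 (-1.08, with 18.7% of its words shared) and Hsf1 (-1.03). Dnajb1, an HSP40 that works with HSP70, went the other way at 37.8 and 74.6 FPKM (0.96). After centring it was 1 of 12 beyond 2-fold higher (1.26), against 14.5% of all genes.

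**Figure D5:**
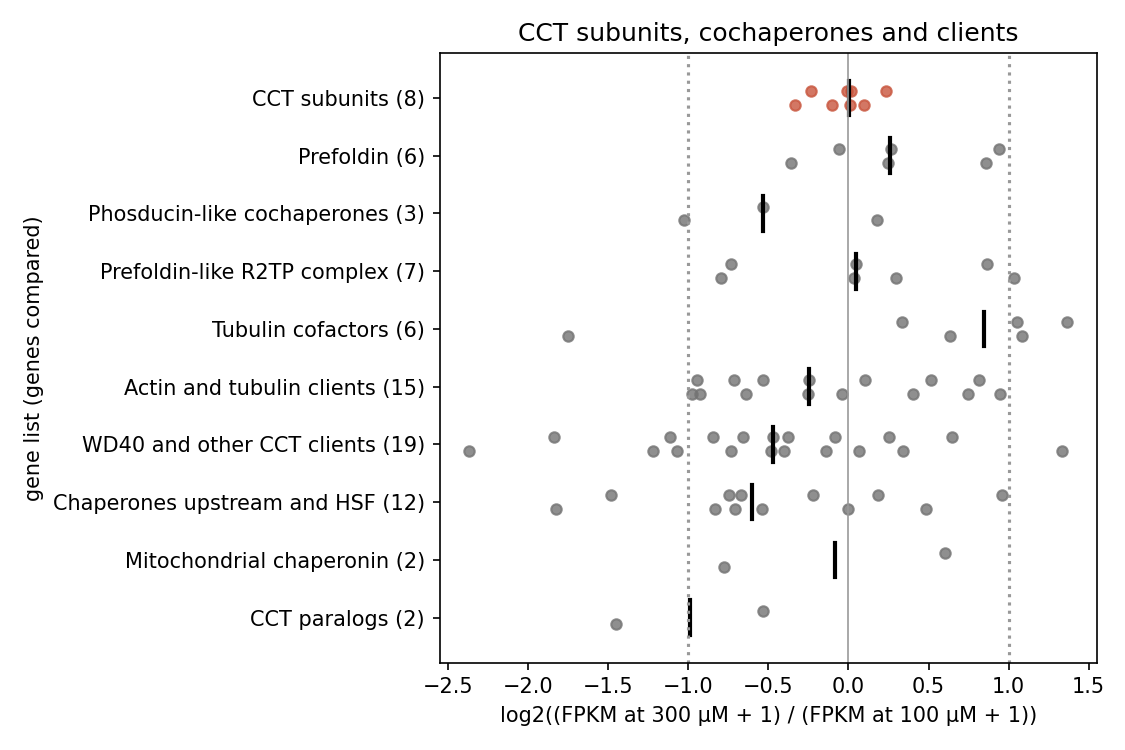
Log2 ratios of 300 µM over 100 µM, with 1 added to each value (horizontal axis), for the CCT subunits (red) and 9 lists of cochaperones, clients and related chaperonins (grey), with the number of genes compared in parentheses. Each point is a gene, black bars are medians and dotted lines mark 2-fold. The CCT points lie between -0.33 and 0.24, and the tubulin cofactors and WD40 clients hold points on both sides beyond 2-fold.

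The labelled cell type was checked against defining genes. The summed level of 9 osteoblast markers was 4708 FPKM at 100 µM against 4214 FPKM at 300 µM. The collagen genes Col1a1 and Col1a2 stood at 2065 and 2336 FPKM at 100 µM and at 1714 and 2161 FPKM at 300 µM, and so made up most of that sum. Of 8 markers at the required level, 3 had a log2 ratio above zero and 5 below. Above zero were Spp1 (osteopontin), at 253 and 313 FPKM (0.30), the lineage factor gene Sp7 (0.35) and Alpl, near the limit at 0.98 and 1.06 FPKM. The homeobox factor gene Dlx5, at 32.9 and 7.04 FPKM (-2.08), was the 1 of 8 beyond 2-fold lower, against 29.8% of all genes. The lineage factor Runx2 stood at 7.99 and 3.60 FPKM (-0.97). With equal sums Runx2 and Dlx5 were the 2 of 8 beyond 2-fold lower, against 38% of all genes. Bglap (osteocalcin) was listed at 0 at 100 µM and at 0.49 FPKM at 300 µM. Markers of adipocytes, endothelium and muscle reached at most 0.29 FPKM at 100 µM against 0.55 FPKM at 300 µM, and those of macrophages and blood cells at most 2.57 and 0.77 FPKM. Of 5 chondrocyte markers, Acan was listed at 0 in both, Col10a1 at 0.08 FPKM in both and Comp at 0.15 and 0.56 FPKM. However, Col2a1 stood at 322 and 350.1 FPKM and Sox9 at 61.4 and 9.78 FPKM. The part of cell state in the differences was not tested.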

How the data were processed

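RNA sequencing gave 1 library per dose. Each library came as a gene table deposited by the authors, in FPKM with 2 decimals, per the file headers. Per the submitters' processing notes, the tools included Bowtie2 and RSEM, with no versions. No source used here gives the build or the annotation. Symbols were found for 17179 of 17215 gene numbers in RefSeq genes of GRCm38.p6. Ratios were log2 of (FPKM + 1) at 300 µM over 100 µM for genes averaging 1 FPKM or more, and 2-fold was the size counted. The pseudocount understates changes of low genes.

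Depth came from genes with 1 transcript of 300 to 1500 bases in GENCODE M21. Steps of 54 and 52.5 bases per read put 66.2% of 148 and 66.4% of 137 small values no further than 0.12 reads from whole numbers, against 24% for an even spread at a fixed step. These steps were chosen, of those tried, for the highest such share. Read numbers assume the longest coding transcript.

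Members and lists were chosen with earlier results of these data known. Named were all members, list genes beyond 2-fold or else the 2 furthest from zero, and 8 genes whatever their values. The named marker genes, and list genes beyond 2-fold only on another scale, were added after their values were seen. The steps were checked on simulated data. Alternatives were other pseudocounts, filters, fold sizes, scales and leaving out subunits. Computation used scipy 1.17.1, pandas 2.3.3 and numpy 2.4.6 in Python 3.11.15, and matplotlib 3.10.9 drew the figures.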

Additional observations from a re-analysis of the deposited data

How the results depend on the processing

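No paired analysis was possible because each dose has 1 library. The CCT median of 0.00 became -0.37 with equal sums, 0.30 after centring on the median gene and -0.15 with equal sums without ribosomal protein genes, the last scale added after seeing the data. With pseudocounts of 0.1 and 5 it stayed at 0.00, and leaving out each subunit gave -0.01 to 0.01. The SD of 0.18 ranged from 0.15 to 0.20 when a subunit was left out, lowest without Cct6a. The count of members beyond 2-fold was 0 in each direction on each scale, with each pseudocount and, as deposited, at 1.5-fold and 3-fold; with equal sums and 1.5-fold together it was 2 lower. Multiplied by transcript length, the highest subunit exceeded the lowest by 2.10 in place of 1.70 at 100 µM and by 2.27 in place of 2.07 at 300 µM. Over all genes, 616 lay 2-fold or more above and 3020 below. The number higher was 258 with a pseudocount of 5, 219 with equal sums, 408 without ribosomal protein genes, 1472 after centring, 1901 at 1.5-fold, 123 at 3-fold and 358 among genes averaging 10 FPKM or more. The number lower was 1630 with a pseudocount of 5, 1653 at 3-fold and 1141 among genes averaging 10 FPKM or more. Among the 72 cochaperones, clients and related chaperonins compared, 5 were higher and 10 lower. The number higher was 1 with a pseudocount of 5, 1 with equal sums, 2 without ribosomal protein genes and 12 after centring. The number lower was 5 with a pseudocount of 5, 25 with equal sums and 6 after centring. Among all genes compared, 2.16% were higher with equal sums, 4.03% without ribosomal protein genes and 14.5% after centring. Lower were 38% with equal sums and 22.3% after centring. These comparisons are limited by 1 library per dose and by the choice of scale. Over all genes the counts also moved with the pseudocount and with the filter on level.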

Other observations

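The chaperonin of mitochondria is built from HSP60 and its cap HSP10, whose genes Hspd1 and Hspe1 start head to head on opposite strands. Their values went in opposite directions. Hspd1 measured 334 FPKM at 100 µM against 195 FPKM at 300 µM (log2 ratio -0.78), and Hspe1 at 307 and 467 FPKM (0.60). The level of Hspe1 was thus below that of Hspd1 at 100 µM and above it at 300 µM. With equal sums Hspd1 was at least 2-fold lower at 300 µM (-1.15), against 38% of all genes. Hspd1 shares 44.8% and Hspe1 36.1% of their 50-base words with other genes, processed pseudogenes of Hspd1 among them, and the part of such copies in the difference was not tested.

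Several CCT genes also have a gene starting within 1000 bases on the opposite strand. Mrpl18, a mitochondrial ribosomal protein gene beside Tcp1, measured 68.0 FPKM at 100 µM against 84.7 FPKM at 300 µM (0.31). Psph, beside Cct6a, had a log2 ratio of 0.58 where Cct6a had -0.33. Pradc1, beside Cct7, had 0.48 where Cct7 had 0.02. Atpsckmt, beside Cct5, stood at 8.02 and 7.02 FPKM (-0.17) where Cct5 had 0.24. Tsacc, beside Cct3, stood at 1.4 and 4.49 FPKM (1.19).

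Of 5 relatives of CCT, 2 averaged 1 FPKM or more. The testis-type subunit gene Cct6b measured 0.12 FPKM at 100 µM against 0.45 FPKM at 300 µM, and Cct8l1 was listed at 0 in both. Of the chaperonin-like genes of Bardet-Biedl syndrome, Mkks stood at 7.83 and 5.11 FPKM (-0.53), Bbs10 at 1.11 and 0.11 FPKM, below the level compared, and Bbs12 at 2.47 and 0.27 FPKM, the latter with a log2 ratio of -1.45, or -0.50 with a pseudocount of 5.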
